A study of Homo sapiens with 7 samples.

Results

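The 10 genes described here build and regulate the machinery that fuses and divides mitochondria. MFN1, MFN2 and OPA1 carry out fusion, OMA1 and YME1L1 are proteases that cleave OPA1, DNM1L is the fission GTPase, and FIS1, MFF, MIEF1 and MIEF2 are outer-membrane proteins that recruit it. They were chosen by name from the 19974 protein-coding genes on chromosomes 1 to 22 and X, by a rule that uses no measured value. For each gene, the accessible regions at its 2 annotated ends and in the gene body plus 50 kb on either side were taken from the deposited lists.

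Mitochondria in a cell form a network that is remodelled continuously by fusion and fission. The mitofusins join outer membranes, OPA1 joins inner membranes, and DNM1L assembles into rings that constrict the organelle once a receptor has brought it to the surface. When the membrane potential is lost, OMA1 is activated and cleaves the long, fusion-competent forms of OPA1, and the network fragments. In neurons this balance sets the supply of mitochondria to axons and synapses, and inherited defects of MFN2 and OPA1 cause a peripheral neuropathy and an optic atrophy.

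Open chromatin was measured in 7 ATAC-seq libraries from LUHMES cells; in this assay the transposase Tn5 cuts and tags accessible DNA. LUHMES is an established human mesencephalic line whose immortalising transgene is shut off by tetracycline, and the cells, of wild-type genotype per the labels, were differentiated for 6 days with tetracycline, dibutyryl cAMP and GDNF into cells labelled as dopaminergic neurons. The 4 treated libraries (treated 6, 7, 8 and 9, numbered by differentiation) were exposed for 8 hours to antimycin A (25 µM), which blocks complex III of the respiratory chain, and oligomycin (10 µM), which blocks the ATP synthase. The 3 vehicle libraries (vehicle 6, 7 and 8) received DMSO. The design text calls the differentiations independent batches, all from 1 cell line, and the study asked which regions are open with and without mitochondrial stress. Because each library pools many cells, a region open in fewer cells and a region less open in each cell cannot be told apart.

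The lists held 32828 to 248900 regions. The 3 longest were those of treated 6, treated 7 and vehicle 8, so list length cut across the treatments. Read totals are not given in these sources, so depth is unknown and no counting interval is given. Lists of equal size, the 32828 strongest regions of each library by −log10 p, were therefore used wherever regions were counted. Equal size did not make the lists alike. Their median region width was 916, 1450, 484 and 740 bp in treated 6 to 9 and 475, 319 and 868 bp in vehicle 6 to 8. Their lowest −log10 p ran from 4.37 in vehicle 7 to 21.0 in treated 7. A wider region touches a gene end more readily, and the effect on the counts was not tested. In these lists an open end was found for 12082 to 12979 genes in treated and for 10776 to 11772 genes in vehicle libraries. Of 8 neuronal marker genes, 7 had an open end in each treated library and 6 to 7 in the vehicle libraries. Of 10 dopaminergic markers 4 had one in each treated library and 4 to 5 in the vehicle libraries. NR4A2, EN1 and PITX3 had one in 4 treated and 3 vehicle libraries, and SLC6A3 in 4 and 2. LMX1A and FOXA2 each had one in 0 treated and 1 vehicle library, and TH, SLC18A2, DDC and ALDH1A1 had one in none. Of 6 mesenchymal markers, 3 to 4 had one in the treated and 1 to 2 in the vehicle libraries, with COL1A2 and LUM at 0 in all. PDGFRB had one in 4 treated and 0 vehicle libraries, COL1A1 in 3 and 0, PRRX1 in 4 and 2, and TWIST1 in 4 and 3. Of 6 glial markers, 2 to 3 had one in the treated and 1 to 2 in the vehicle libraries. OLIG2 had one in 4 and 3, MBP in 4 and 2, AQP4 in 2 and 0, and GFAP, S100B and SOX10 in none. Of 3 endothelial markers 1, KDR, had one in each library, and of 3 microglial markers 0 to 1 in either group. In the lists as deposited the mesenchymal count was 4 to 5 in treated and 1 to 5 in vehicle libraries. There TWIST1 had a region in 4 treated and 3 vehicle libraries, and PDGFRB and PRRX1 in 4 and 2. LUM and COL1A1 had one in 3 and 1, and COL1A2 in none. TH had one in 3 and 0, SLC18A2 in 4 and 1, DDC in 1 and 0, LMX1A in 2 and 2, FOXA2 in 3 and 2, and ALDH1A1 in none. Their part in the results below was not tested.

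Start sites were taken from the RefSeq promoter table (GRCh38.p14, that is hg38 as used by the files), which held 9 of the 10 genes. The 250 bases before the start are shown for MFF and MFN1, which had the largest treated-minus-vehicle differences at their ends in either direction, for DNM1L, which had the highest median rank, and for FIS1 and OPA1, which were added after their values were seen, FIS1 because its groups did not overlap and OPA1 because it held the only NRF1 string. They lie at chr3:179347459-179347708 (MFN1, plus strand), chr3:193592958-193593207 (OPA1, plus), chr12:32679051-32679300 (DNM1L, plus), chr7:101245082-101245331 (FIS1, minus) and chr2:227325001-227325250 (MFF, plus). Each reads 5′ to 3′ in the direction of transcription, and capitals mark every match to the strings listed after the sequences.
MFN1: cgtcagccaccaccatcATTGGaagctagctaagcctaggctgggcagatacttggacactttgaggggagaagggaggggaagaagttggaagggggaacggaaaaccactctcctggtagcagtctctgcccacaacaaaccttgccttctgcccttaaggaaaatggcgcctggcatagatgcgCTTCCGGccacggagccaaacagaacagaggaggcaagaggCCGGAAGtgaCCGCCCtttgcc
OPA1: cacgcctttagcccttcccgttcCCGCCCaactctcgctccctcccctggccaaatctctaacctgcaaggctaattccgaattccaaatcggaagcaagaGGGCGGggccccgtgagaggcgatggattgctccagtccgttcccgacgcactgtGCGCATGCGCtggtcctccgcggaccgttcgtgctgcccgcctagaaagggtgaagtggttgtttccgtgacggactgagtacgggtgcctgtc
DNM1L: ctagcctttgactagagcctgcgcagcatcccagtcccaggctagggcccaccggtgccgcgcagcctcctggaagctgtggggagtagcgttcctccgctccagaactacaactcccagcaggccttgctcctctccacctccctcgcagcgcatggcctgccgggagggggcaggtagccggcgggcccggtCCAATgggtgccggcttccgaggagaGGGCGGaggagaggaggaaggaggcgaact
FIS1: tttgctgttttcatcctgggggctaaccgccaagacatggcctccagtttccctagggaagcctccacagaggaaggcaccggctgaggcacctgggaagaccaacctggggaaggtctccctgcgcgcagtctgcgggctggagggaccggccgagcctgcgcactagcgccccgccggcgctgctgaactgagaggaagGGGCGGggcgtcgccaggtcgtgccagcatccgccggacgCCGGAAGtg
MFF: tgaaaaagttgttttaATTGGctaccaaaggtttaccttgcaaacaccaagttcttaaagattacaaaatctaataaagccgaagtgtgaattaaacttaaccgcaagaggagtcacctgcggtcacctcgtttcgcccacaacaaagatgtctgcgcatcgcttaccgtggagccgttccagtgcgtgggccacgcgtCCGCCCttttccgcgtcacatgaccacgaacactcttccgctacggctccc

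The strings were searched on both strands over the 250 bases before 35116 RefSeq starts. They were NRF1 (its palindromic site, shown in capitals for OPA1), ETS (CCGGAAG), SP1 (GGGCGG), NFY (CCAAT), CREB (TGACGTCA), AP-1 (TGANTCA), ATF4 (TGATGNAAT), YY1 (AAGATGGCG), E-box (CACGTG) and ARE (TGACNNNGC). Several of them share bases, as CREB and ARE do in TGAC, so matches can overlap. Among the 12 start windows of the 9 genes, the NRF1 string, named for a factor that controls many nuclear genes of mitochondria, stood in that of OPA1 alone, at -94 from the start, and in 1.03% of all promoters. The ETS string stood in 3 of the 12, those of MFN1, FIS1 and MIEF1, against 8.52% of all promoters, and in MFN1 it occurred on each strand, at -63 and -22. SP1 strings stood in 9 of the 12 windows, against 42.6% of all promoters, and MFN2 was the gene of the 9 without one. NFY strings stood in 7 of the 12 windows, from DNM1L, MFF, MFN1, MIEF1 and MIEF2, against 32% of all promoters. The ATF4, CREB, AP-1, YY1 and E-box strings, which occurred in 0.652% to 6.57% of all promoters, had no match in these windows. Median GC was 66% over the 12 windows and 58% over all promoters, and the 3 windows of MFF were the lowest of the 12, at 49.2%, 33.6% and 35.2%.

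All of these genes apart from MIEF1 and MIEF2 had a region within 1 kb of an annotated end in each of the 7 lists, deposited or equal-size. Over all protein-coding genes 49.8% had one in all 7 deposited lists and 46.5% in all 7 equal-size lists. MIEF2 had one in 4 treated and 2 vehicle libraries, with none in vehicle 7. In the equal-size lists 9 of the 10 genes had such a region in each treated library, and 9, 8 and 9 in vehicle 6, 7 and 8. Presence at an end thus differed by at most 1 gene between libraries.

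To compare strength, the largest fold enrichment at the ends of a gene was ranked within each library among the 9946 genes that had such a region in all 7 lists. A percentile of 0 is the lowest and 100 the highest of those genes. The 8 genes with a region in all lists entered this comparison, and MIEF1 and MIEF2 did not. Percentiles of all tested genes correlated between libraries with Pearson's r of 0.75 to 0.92 across genes, which are not independent replicates. No gene, among these or elsewhere, passed limma with Benjamini-Hochberg adjustment at 0.05 (0 of 9946, 0%). An unadjusted limma p under 0.05 was reached by 818 genes (8.22%), and an exact permutation test over samples called 0 genes after adjustment, which says little because its smallest p over the 35 assignments of the labels is 0.0286. The lowest limma adjusted p over all genes was 0.252.

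**Figure D1:**
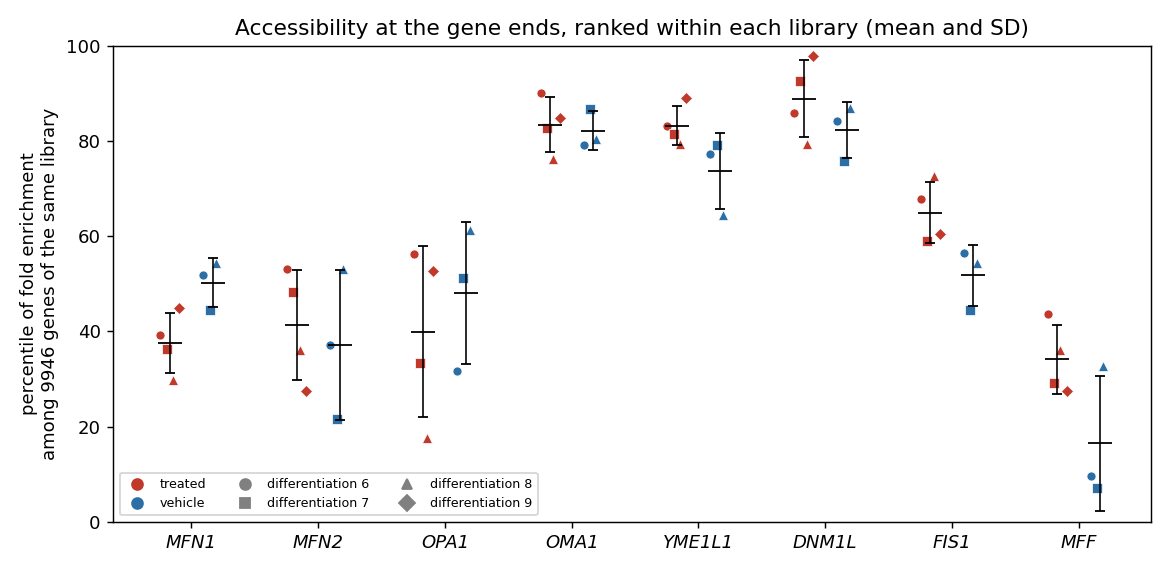
Percentile of the fold enrichment at the gene ends (vertical axis, 0 to 100, among the genes tested in the same library) for 8 genes (horizontal axis). Points are libraries, coloured by treatment and shaped by differentiation, and bars give mean and SD. FIS1 and YME1L1 are the genes whose treated and vehicle points do not overlap, and DNM1L, OMA1 and YME1L1 lie highest.

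The mitofusins MFN1 and MFN2, GTPases of the outer membrane, had end regions of middle rank. MFN1 stood at percentiles 39.1, 36.2, 29.7 and 45.0 in treated 6, 7, 8 and 9 and at 51.95, 44.5 and 54.4 in vehicle 6, 7 and 8. All but treated 9 lay below the lowest vehicle value, so the groups overlapped at that library only. The mean was 37.5 ± 6.34 (SD, n = 4) in treated and 50.3 ± 5.18 (SD, n = 3) in vehicle libraries. The difference of -12.7 percentile points (SE 5.12) was the lowest of the 8 genes and had a limma adjusted p of 0.583. MFN2 stood at 53.2, 48.4, 36.1 and 27.6 in the treated libraries and at 37.1, 21.6 and 53.1 in the vehicle libraries. The ranges overlapped widely, and the difference of 4.07 points (SE 9.08, limma adjusted p = 0.944) became -3.76 with list length as a covariate and -3.70 without vehicle 7.

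OPA1, the dynamin-like GTPase of the inner membrane, had the widest range of the fusion genes. Its percentiles were 56.3, 33.2, 17.7 and 52.7 in treated 6 to 9 and 31.7, 51.2 and 61.3 in vehicle 6 to 8. Treated 8 was the lowest and vehicle 8 the highest, and the groups overlapped. The difference was -8.12 points (SE 11.1, limma adjusted p = 0.886), and it was -0.619 without treated 8. The region over the OPA1 start is also at an end of ATP13A4, a transporter gene that abuts it, so the value belongs to both genes.

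The OPA1 proteases had stronger end regions. OMA1, the stress-activated protease, stood at 90.1, 82.7, 76.2 and 84.9 in the treated and at 79.2, 86.8 and 80.5 in the vehicle libraries. These ranges overlapped, and the difference of 1.29 points (SE 4.80, limma adjusted p = 0.970) became -0.925 without treated 6. YME1L1, the constitutive protease of the inner membrane, stood at 83.1, 81.5, 79.4 and 89.0 in treated and 77.4, 79.2 and 64.5 in vehicle libraries. Every treated value lay above every vehicle value, though treated 8 and vehicle 7 were only 79.4 and 79.2. The difference of 9.55 points (SE 5.16) had a limma adjusted p of 0.666, and it was 4.97 without vehicle 8. The OMA1 region is shared with an end of DAB1 and the YME1L1 region with an end of MASTL. In an alternative run the summit (highest point) of a region had to lie within 1 kb of a gene end. YME1L1 could not be tested there, because not all 7 lists held such a summit. Its values therefore belong in part to signal further than 1 kb from its own end.

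DNM1L, the GTPase that constricts the organelle, had the highest median rank of the 8 genes, although OMA1 stood above it in treated 6 and vehicle 7 and YME1L1 in vehicle 7. It stood at 85.9, 92.6, 79.4 and 97.9 in treated and 84.2, 75.7 and 87.0 in vehicle libraries. Treated 9 and treated 7 were highest, vehicle 7 was lowest and the groups overlapped. The difference was 6.59 points (SE 5.75, limma adjusted p = 0.798), and it was 2.99 without vehicle 7.

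Of the receptors that bring DNM1L to the membrane, FIS1 and MFF had the largest positive differences of the 8 genes. FIS1 stood at 67.8, 58.9, 72.7 and 60.4 in the treated and at 56.5, 44.5 and 54.4 in the vehicle libraries. No treated value reached down to a vehicle value, and the closest were treated 7 and vehicle 6. The mean was 65.0 ± 6.47 (SD, n = 4) against 51.8 ± 6.42 (SD, n = 3), and the difference of 13.2 points (SE 5.37) had a limma adjusted p of 0.583. Without vehicle 7 it was 8.74 points. MFF stood at 43.6, 29.2, 36.1 and 27.6 in the treated and at 9.56, 7.14 and 32.7 in the vehicle libraries. Vehicle 6 and 7 lay below every treated library, whereas vehicle 8 lay within the treated range. The mean was 34.1 ± 7.31 (SD, n = 4) against 16.5 ± 14.1 (SD, n = 3), and the difference of 17.6 points (SE 7.48) had a limma adjusted p of 0.60. The MFF fold enrichment was 5.36 in vehicle 6 and 4.96 in vehicle 7, where the medians over all regions of those lists were 5.36 and 5.59. With regions limited to a −log10 q of at least 5, MFF could not be tested, because not all 7 lists then held an end region for it.

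Groups that do not overlap, with the treated libraries higher, were thus found for 2 of the 8 genes (FIS1 and YME1L1), against 3.94% of the 9946 tested. For the opposite direction the count was 0 of 8, against 4.58% of all. Unadjusted limma p-values under 0.05 were found for 3 of the 8 (MFN1, FIS1 and MFF), against 8.22% of all genes. The median difference of the 8 genes was 5.33 percentile points, and that of all tested genes 0.0702. The median size of the difference, sign aside, was 8.83 points for the 8 genes and 6.07 for all.

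**Figure D2:**
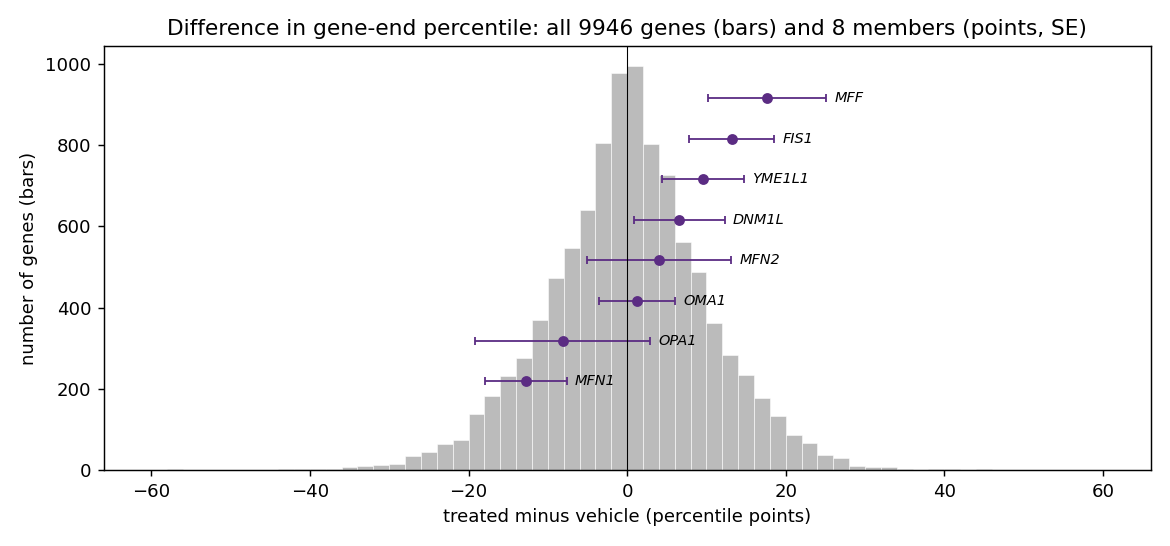
Treated minus vehicle difference in end percentile (horizontal axis, percentile points). Grey bars count all tested genes in steps of 2 points, and purple points give the 8 genes with the SE from limma, stacked for legibility. Differences ran from -12.7 for MFN1 to 17.6 for MFF, within the spread of all genes, which reached -56.4 and 54.7.

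Ordered by the median percentile over the 7 libraries, the ends ranked DNM1L at 85.9, OMA1 at 82.7, YME1L1 at 79.4, FIS1 at 58.9, OPA1 at 51.2, MFN1 at 44.5, MFN2 at 37.1 and MFF at 29.2. Each neighbouring pair in this order overlapped in its range over libraries. The ranges of DNM1L, OMA1 and YME1L1, of which the lowest value was 64.5, lay above those of OPA1, MFN1, MFN2 and MFF, of which the highest was 61.3. The fission GTPase and the OPA1 proteases therefore ranked above the fusion GTPases and MFF in every library, under either treatment. For YME1L1 this rests on a region shared with MASTL, whose summit was not within 1 kb of the YME1L1 end in every library.

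The deposited fold enrichments behind these ranks, over each library's own background, ran from 11.8 to 42.5 for DNM1L, from 12.7 to 46.5 for OMA1 and from 12.4 to 40.3 for YME1L1. Those of MFF ran from 4.96 to 22.96 and those of MFN2 from 6.21 to 25.8. Each of the 8 genes had its largest fold enrichment in treated 6 or vehicle 8, which are 2 of the 3 longest lists. The folds also fall on few distinct values: MFN2, MFF and the MIEF1 start region all stood at 8.26 in treated 8 and at 8.00 in treated 9, so small differences in rank among them cannot be resolved.

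Widths of the end regions were also ranked within each library, since the width in bp moves with list length. YME1L1 had the widest region of the set, at 2990, 3688, 2374 and 2916 bp in treated 6 to 9 and at 1334, 1901 and 2927 bp in vehicle 6 to 8. Its width percentile was 78.7 in vehicle 6 and between 91.7 and 98.3 in the other libraries. The MFF region was 1501, 1409, 1377 and 1201 bp wide in the treated libraries and 484, 508 and 1359 bp in the vehicle libraries. In bp, vehicle 8 lay within the treated range and vehicle 6 and 7 lay below it. Ranked within each library, the MFF widths were at percentiles 49.3, 15.8, 79.7 and 43.6 in the treated and 18.0, 34.9 and 43.0 in the vehicle libraries. On that scale treated 7 was the lowest, and all vehicle libraries lay inside the treated range. Regions of the other 6 tested genes were 329 to 1944 bp wide. For width, limma called 0 of 9946 genes (0%), with 660 at an unadjusted p under 0.05 (6.64%), and the exact permutation test, with the same smallest p, called 0. Width groups without overlap were found for 0 of the 8 genes, against 2.39% of all genes with the treated libraries higher and 3.66% with them lower. The lowest limma adjusted p of the 8 was 0.786, for DNM1L.

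**Figure D3:**
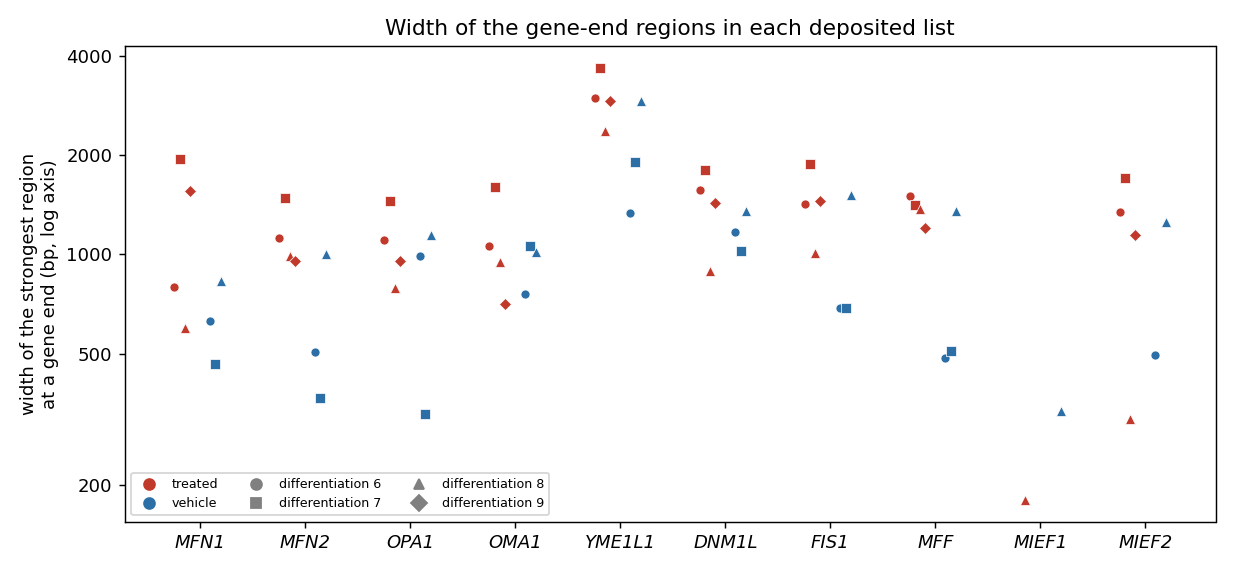
Width of the strongest region at a gene end (vertical axis, bp, log scale) in each deposited list for the 10 genes. Points are libraries, coloured by treatment and shaped by differentiation. YME1L1 is widest, MIEF1 has a region at an annotated end in treated 8 and vehicle 8 only, and MIEF2 has none in vehicle 7.

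Measured from the RefSeq start, the summits of most start regions lay close to where transcription begins. YME1L1 had no start in the promoter table, so its summits were not placed in this way. The median summit was at -39 bp for DNM1L, -38 bp for MFN1, -42 bp for OMA1, -12 bp for MFF, -113 bp for OPA1 and -148 bp for MFN2, where negative values are upstream. FIS1 and MIEF1 had every summit downstream of the start, between 47 and 219 bp with a median of 167 bp for FIS1 and between 30 and 144 bp with a median of 74 bp for MIEF1. MFF has 3 starts in the table. The region lay over the most upstream of them in all 7 libraries, and no library had a region over the others at 227327512 and 227328678 on chromosome 2. The ARE string of MFF stands before the last of these, outside any region.

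MIEF1, which tethers DNM1L to the outer membrane, had its main region away from the annotated gene ends. Its RefSeq gene begins at chr22:39500100, and a region within 1 kb of that point or of the gene's far end was listed in treated 8 and vehicle 8 alone, at a fold enrichment of 3.30 and 2.88. The start in the promoter table, at 39502290, lay under a region in all 7 libraries. The fold enrichment there was 21.4, 14.4, 8.26 and 8.00 in treated 6 to 9 and 4.69, 8.07 and 19.3 in vehicle 6 to 8. Vehicle 6 was the lowest, and the groups overlapped. When all genes were ranked by their promoter windows instead, an alternative chosen after seeing the data, MIEF1 averaged 27.2 ± 5.68 (SD, n = 4) in treated and 24.3 ± 18.7 (SD, n = 3) in vehicle libraries. The difference was 2.97 points (SE 8.65, limma adjusted p = 0.953). Merged over the libraries, the MIEF1 start region came within 1 kb of an end of MIURF, a small gene annotated at the same locus. Among the single libraries only the region of treated 7, the widest, did so. MIEF2, the paralogous receptor, had fold enrichments of 12.3, 9.58, 4.41 and 6.40 in the treated libraries and of 6.70 and 13.97 in vehicle 6 and vehicle 8. Its region is shared with an end of FLII, a neighbouring gene of the actin cytoskeleton.

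Distal regions, those not within 1 kb of an end of any protein-coding gene, were few around most of these genes. In the equal-size lists the median was 0.5 distal regions per gene and library for the 10 genes and 1.14 over all genes. MFN1 had none in any library, and FIS1 had exactly 1 in each of the 7. MFN2 and MIEF1 had the most. MFN2 had 4, 4, 2 and 4 in treated 6 to 9 and 0, 4 and 2 in vehicle 6 to 8. MIEF1 had 3, 3, 6 and 3 in the treated libraries and 1, 1 and 3 in the vehicle libraries. Every MIEF1 count but that of treated 7 includes the region over its promoter-table start, which lies more than 1 kb from its annotated ends. In vehicle 6 and vehicle 7 that region was the only one counted. In treated 7 it was wide enough to come within 1 kb of an end of MIURF. For MFN2 and MIEF1 alike the vehicle range reached into the treated range.

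MIEF1 had the largest difference in distal regions among the 10 genes, at 3.75 ± 1.5 (SD, n = 4) in treated and 1.67 ± 1.15 (SD, n = 3) in vehicle libraries. The difference of 2.08 gave p = 0.114 in the exact permutation test, two-sided, which has the same smallest p. It was 0.5 in equal lists of 50% size, 0 with a flank of 10 kb, 1.08 with 100 kb and 1.33 without treated 8. In the lists as deposited MIEF1 had 14, 20, 9 and 6 distal regions in the treated and 1, 1 and 18 in the vehicle libraries, and vehicle 8 thus lay among the highest. After adjustment over all genes the exact permutation p was 1 for each of the 10 genes. Groups that do not overlap were found for 0 of the 10 genes, against 1.55% of all genes with more and 0.766% with fewer distal regions in the treated libraries.

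Merging the equal-size lists gave 62507 consensus regions, of which 49 lay in the windows of these genes. Of the 49, 9 were at an end of the genes themselves, 16 at an end of another gene and 24 distal. The 16 include the merged region over the promoter-table start of MIEF1, which was labelled by an end of MIURF. All 7 libraries shared 17 of the 49 (34.7%), against 22.9% of all consensus regions. Of the distal regions alone, 1 of 24 (4.17%) was in all 7 libraries, against 12.5% of all distal regions. Of the 17 shared regions, 8 were at an end of the genes themselves, 8 at an end of another gene and 1 distal. The windows held a larger share at gene ends than the whole set, 51.0% against 21.8%. They contain gene ends by construction, so the larger shares at gene ends and in all 7 libraries say little about these genes. None was found in all 4 treated and no vehicle libraries (0.781% of all consensus regions) or in all 3 vehicle and no treated libraries (0.37%). With the looser rule of 3 or 4 treated and 0 or 1 vehicle libraries there were 6 of 49, or 4 distal and 2 at gene ends, against 7.85% of all, and 0 with 0 or 1 treated and 2 or 3 vehicle libraries, against 4.65%. A further 13 of the 49 were in 1 treated library alone, against 16% of all consensus regions, and 2 of the 49 in 1 vehicle library alone, against 22.1%.

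The distal region shared by all 7 libraries was that of FIS1, at chr7:101251768-101252728, 6687 bp beyond the gene body. Its median percentile in the equal-size lists was 61.4, and its fold enrichment was 15.7, 11.7, 6.06 and 8.40 in treated 6 to 9 and 9.38, 6.21 and 18.9 in vehicle 6 to 8. The groups overlapped throughout. For MFN2 the strongest distal region was chr1:12053143-12054836, in 4 treated and 2 vehicle libraries, with none in vehicle 6. Vehicle 6 had no distal region of MFN2 in its equal-size list at all. For MIEF1 it was chr22:39482286-39483771, within the body of the glycosyltransferase gene MGAT3, in 4 treated libraries and in vehicle 8. That region had a fold enrichment of 12.3, 9.86, 6.61 and 10.4 in treated 6 to 9 and of 17.3 in vehicle 8, the highest of the 5 values. It was listed in neither vehicle 6 nor vehicle 7, also in the lists as deposited.

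The strongest distal regions of the other genes were each found in few libraries. Over the windows of OPA1, OMA1, YME1L1, DNM1L and MFF, no distal consensus region was in more than 2 of the 7 equal-size lists, and over that of MIEF2 none was in more than 3. Around YME1L1 the merged set held only the region over its own end and that of ANKRD26, and around MFN1 only its own and that of ZNF639. The counts per library judged each library's own regions, so a part of a merged end region can count as distal there. The YME1L1 counts of 1 in treated 8 and in vehicle 7 arose in this way.

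**Figure D4:**
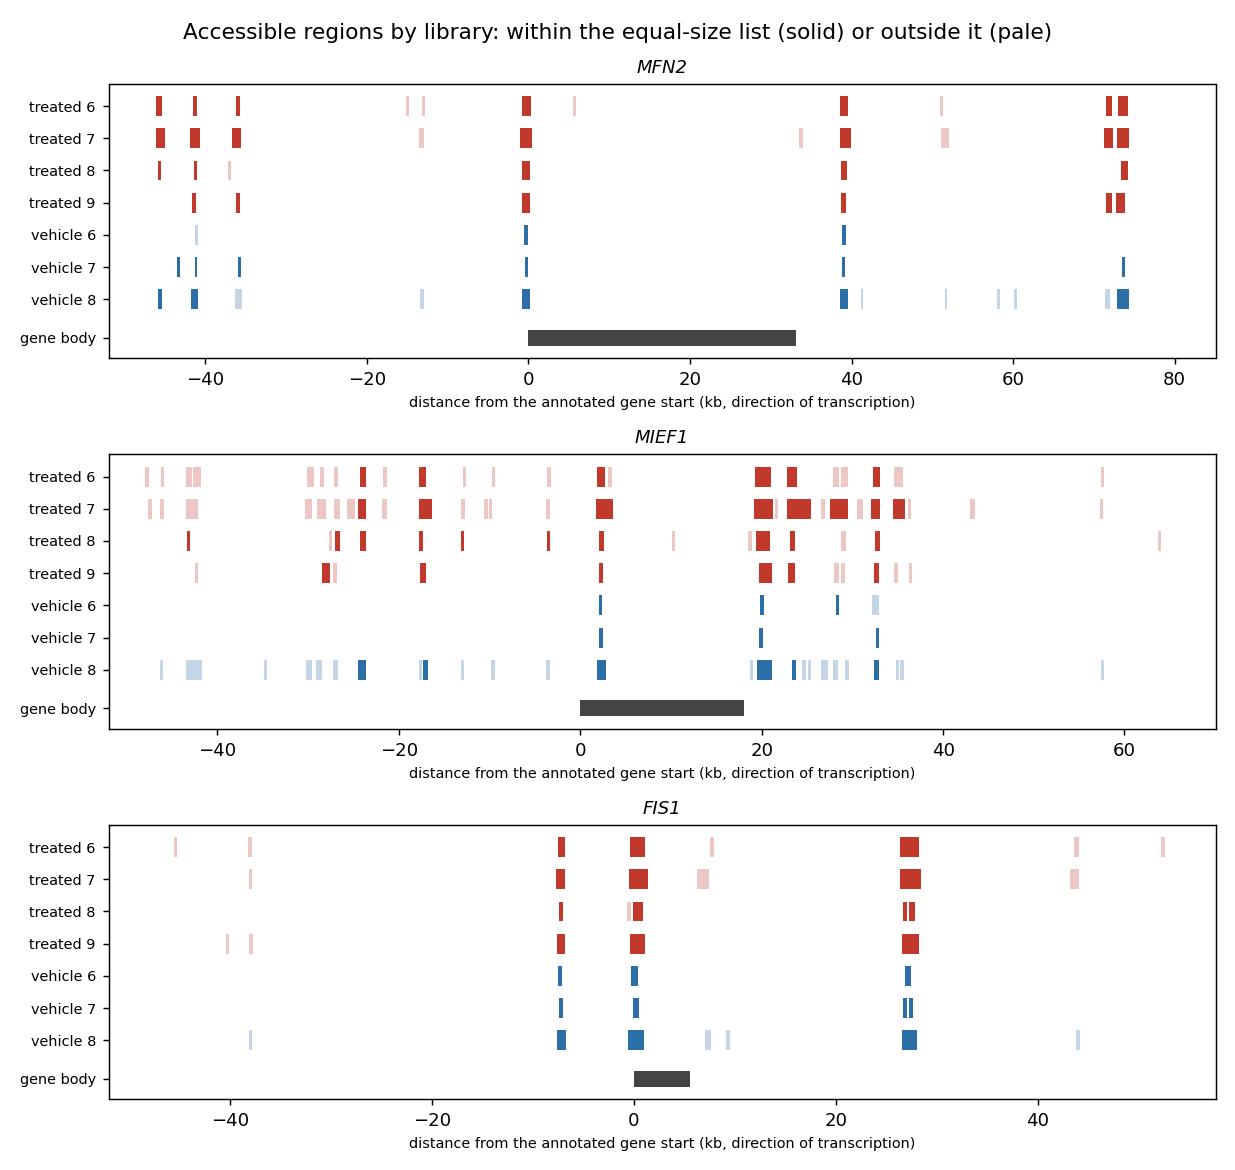
Accessible regions of each library around MFN2, MIEF1 and FIS1 (horizontal axis, kb from the annotated gene start in the direction of transcription). Each row is a library, solid blocks are in its equal-size list, pale blocks are only in its deposited list, and the dark bar is the gene body. The start regions of MFN2 and FIS1 and the region inside MIEF1 stand in all 7 rows, and the FIS1 distal region upstream of its start does too.

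Ends of neighbouring genes made up much of the open chromatin shared by all libraries in these windows. They were those of ZNF639 near MFN1, MIIP near MFN2, ANKRD26 near YME1L1, YARS2 near DNM1L, PLOD3 and ZNHIT1 near FIS1, ATF4 near MIEF1, and TOP3A and SMCR8 near MIEF2. The merged region that reaches an end of MIURF was also shared by all libraries, but it lies over the promoter-table start of MIEF1. ATF4 encodes the main transcription factor of the integrated stress response and lies just beyond MIEF1. Its end region at chr22:39519304-39521365 was in all 7 libraries, with fold enrichments of 21.4, 14.2, 8.26 and 6.40 in treated 6 to 9 and 6.70, 8.07 and 18.9 in vehicle 6 to 8. These groups overlapped. Another region, at its other end (chr22:39522847-39525570), was in the equal-size lists of all 4 treated libraries and of vehicle 8. This region and that of a PLOD1 end near MFN2, in 3 treated libraries and vehicle 8, were the 2 gene-end regions found by the looser rule.

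Another 26 genes of mitochondrial dynamics and its regulation were examined in the same way, and 18 had an end region in all 7 lists. In the equal-size lists 21 to 22 of the 26 had one in treated and 19 to 21 in vehicle libraries. Over all 19974 genes these counts were 12082 to 12979 and 10776 to 11772. Of the genes left out, PLD6 and MUL1 had one in 4 treated and 1 vehicle library, PGAM5 in 4 and 2, and MTFR1L in 3 and 1. INF2 had one in 0 and 1, and MTFP1, SPIRE1 and USP30 in none. None of the 18 passed the limma test, 1 had groups that did not overlap (higher when treated, against the same 3.94% of all genes), and their median difference was 2.08 percentile points. The 2 highest differences were those of SPG7, a subunit of an inner-membrane protease, at 17.5 points (SE 6.60, limma adjusted p = 0.569), and MSTO1, a regulator of fusion, at 9.61 points (SE 9.10, limma adjusted p = 0.813). The MSTO1 difference was 4.78 without treated 9 and 15.8 without treated 8. SPG7 was the gene without overlap, at 27.3 ± 10.3 (SD, n = 4) in treated and 9.72 ± 6.28 (SD, n = 3) in vehicle libraries. The 2 lowest were CHCHD3, a cristae organiser, at -19.8 points (SE 9.93, limma adjusted p = 0.638), and STOML2, an inner-membrane scaffold that interacts with OPA1 processing, at -13.7 points (SE 12.8, limma adjusted p = 0.809). Without treated 8 these were -12.8 and -6.80, and without treated 9 that of STOML2 was -22.1. Among the remaining OPA1-linked proteases, AFG3L2 differed by 6.55 points and PARL by 3.04 points, neither past the test.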

How the data were processed

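Nuclei of 7 cultures were tagged with Tn5, per the labels' protocols. Reads were handled with FastQC, Bowtie2 and Picard on build hg38, per the submitters' processing notes. The authors called peaks library by library with MACS2, per the file headers. A Tn5 read shift and the settings of MACS2 are not given in these sources, and settings would change region number and width. Each deposited list gives, per peak, the fold enrichment over background as a ratio, the −log10 p and −log10 q, and a score, all the authors' values.

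Peaks outside chromosomes 1 to 22 and X (29 to 54 per library, with duplicates of a position) were removed. Genes came from the RefSeq table of GRCh38.p14, in which all 36 genes of both lists matched. End regions lie within 1 kb of a gene end, and consensus regions were made by merging the equal-size lists. Percentiles were compared with limma 3.58.1 in R 4.3.3 without covariates, with Benjamini-Hochberg adjustment over all tested genes. For counts of distal regions an exact permutation test over samples was used. The functions were tested on simulated data and against bedtools 2.31.1. Python 3.11.15, pandas 2.3.3 and scipy 1.17.1 were used.

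The genes and lists were chosen with earlier results of these data known. Named were all 10 genes, distal regions found in all libraries or in those of 1 treatment only, and the 2 related genes with the largest difference in each direction. Each gene's distal region of highest median percentile was also to be named, and was for FIS1, MFN2 and MIEF1. The distal regions of the other genes, where there were any, had a median percentile of 0. AFG3L2, PARL and the related genes without an end region in every list were named outside these rules. Alternatives covered list size and order, thresholds, windows, scale, test, list length as a covariate, the replicate block and each library left out.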

Additional observations from a re-analysis of the deposited data

Results flagged for a closer look

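In 7 of 24 groups of 4 treated libraries tested, 1 library stood apart from the other 3 by more than Dixon's 95% critical value, where chance gives about 1 group in 20. The width percentile of the MFN2 end was 54.3 in treated 8 and 19.7 to 25.3 in treated 6, 7 and 9. Another 6 cases concern small counts of distal regions in the equal-size lists, where 3 tied libraries and 1 other always meet the rule. Treated 8 had 6 distal regions around MIEF1 where the others had 3, and without it the MIEF1 difference was 1.33 in place of 2.08. Treated 8 also had 2 around MFN2 where the others had 4, and 1 around YME1L1 where the others had 0. Treated 9 had 0 around DNM1L and 0 around MIEF2 where the others had 1, and treated 6 had 1 around MFF where the others had 0.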

How the results depend on the processing

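No fusion or fission gene passed an adjusted p of 0.05 in any alternative run in which it was tested (lowest limma adjusted p 0.406 for fold enrichment, MFF without vehicle 8, and 0.265 for width, DNM1L without vehicle 8). MFF was not tested in the run limited to regions with a −log10 q of at least 5. YME1L1 was not tested in those with summits within 1 kb or with promoter windows. For fold enrichment 0 genes passed under each alternative. For width 1 gene passed with a 3 kb window and 0 to 55 with a library left out, 55 without vehicle 8 and 6 without treated 8, none of them among the 10.

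Fold differences turned sign for MFN2 (-3.76 with list length as covariate, -3.70 to 12.0 with a library left out) and OMA1 (-0.925 to 3.67). With a library left out, width differences ranged from -17.2 to 3.78 for OPA1, -1.54 to 7.47 for YME1L1 and -2.82 to 7.47 for FIS1, turning sign without vehicle 6. Distal differences turned for OMA1 (-0.333 with lists of 50% size and with 100 kb), DNM1L (-0.333 and -0.833, and -0.25 without vehicle 7), YME1L1 (0.917 with lists as deposited, 0.25 without vehicle 7) and MFF (0.0833 as deposited, 0.25 with 10 kb and without vehicle 7). The causes were not tested.

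Over all genes, those with more distal regions in every treated library numbered 309, but 160 with lists of 50% size, 76 with lists as deposited, 152 with 10 kb and 385 to 1009 with a library left out. Those with fewer numbered 153, but 5 as deposited, 93 with 10 kb and 216 to 626 with a library left out. Fewer samples make groups without overlap more common by construction. Distal regions in 1 treatment only numbered 0, but 1 with lists of 50% size (MFN2, chr1:12053143-12054836) and 0 to 1 with a library left out. They were chr1:12051739-12052835 of MFN2 without treated 8 and chr22:39482286-39483771 of MIEF1 without vehicle 8. The treated-minus-vehicle difference in genes with an end region was 0.333, 0.917 with lists of 50% size and 0 to 0.5 with a library left out.

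Differentiations 6, 7 and 8 occur in both groups. Deviations of same-numbered libraries correlated at -0.104, 0.0164 and -0.0237, and the numbers were not taken as pairs. The highest correlation of a treated with a vehicle library was 0.233, for treated 6 with vehicle 8. List length differed widely within each pair, so these values cannot show whether the batches were paired. With the replicate block limma called 0 genes for either measure, and 908 genes had more and 416 fewer distal regions in all 3 pairs.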
